A study of Mus musculus with 14 samples.

Results

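The genes described here make, break down and sense prostaglandins, and 10 of them were followed across all the arrays: *Pla2g4a*, *Ptgs1*, *Ptgs2*, *Ptges*, *Hpgds*, *Ptgis*, *Tbxas1*, *Hpgd*, *Ptger2* and *Ptger4*. They were chosen by name, as the probes whose gene name on the array equals one of these symbols, which gave 12 probes, among 36161 gene names and 55681 probes in all. Each gene was read from its brightest probe over the arrays, and *Ptges* and *Hpgd* had a further probe each. RNA of 14 samples had been labeled with Cy3 and hybridized to 1 array per sample. Healthy small intestine (3 arrays) and colon (3) carry the strain label C57BL/6J, adenomas (3) and the tissue adjacent to them (2) carry APCmin/+, and CT26 (3) is a colorectal carcinoma cell line that was bought from a cell collection and derives from BALB/c mice. The study's methods give C57BL/6J as the background of all its mice, those with APCmin/+ included. APCmin/+ mice carry a truncating germline mutation of *Apc* and form many adenomas in the small intestine. The study's sample list places the adenoma and adjacent pieces run on arrays under 1 such mouse, so the spread of these groups is that between pieces of tissue. Small intestine arrays are listed under different mice. The list also puts 1 of the colon samples under an APCmin/+ mouse, against its label. Whole tissue was used, and in such bulk samples fewer cells of a type and less RNA per cell cannot be told apart.

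Prostaglandins are lipid signals made from arachidonic acid. The phospholipase encoded by *Pla2g4a* frees arachidonic acid from membranes, the cyclooxygenases encoded by *Ptgs1* and *Ptgs2* turn it into a common precursor, and terminal synthases make prostaglandin E (*Ptges*), prostaglandin D (*Hpgds*), prostacyclin (*Ptgis*) or thromboxane (*Tbxas1*) from it. *Hpgd* encodes the dehydrogenase that starts the breakdown of prostaglandin E, and *Ptger2* and *Ptger4* encode receptors for it that act through cyclic AMP. In the gut, *Ptgs1* is known as the constitutive and *Ptgs2* as the inducible cyclooxygenase, and inhibitors of these enzymes are known to lower the number of intestinal polyps.

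*Ptgs2* and *Hpgd* were called in opposite directions both in adenomas against small intestine and in CT26 against colon, and the sequences around their annotated starts are shown for that reason. Both come from the RefSeq promoter table for GRCm38.p6, on the plus strand, 5′ to 3′, with 180 bases before the start and 30 after it. *Ptgs2* is printed from chr1:150099851-150100060 and *Hpgd* from chr8:56294372-56294581. Capitals mark matches, on either strand, to the letters TATAAA (the TATA box), CACGTG (the E-box), TGACGT (the core of the cyclic AMP response element), CCAAT (the CCAAT box), GGGCGG (the GC box) or CTTTGAT (the TCF and LEF site).
Ptgs2: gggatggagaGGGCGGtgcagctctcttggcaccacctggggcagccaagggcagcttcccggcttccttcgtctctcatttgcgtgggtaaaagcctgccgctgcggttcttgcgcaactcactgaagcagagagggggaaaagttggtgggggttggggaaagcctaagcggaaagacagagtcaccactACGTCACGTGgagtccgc
Hpgd: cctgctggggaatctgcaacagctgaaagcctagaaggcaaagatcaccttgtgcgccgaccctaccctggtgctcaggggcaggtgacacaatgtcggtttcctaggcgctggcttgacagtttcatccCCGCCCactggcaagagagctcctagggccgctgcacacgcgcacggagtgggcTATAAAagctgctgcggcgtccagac

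The *Ptgs2* stretch holds a GC box that begins 170 bases before the start. It also holds the core of the cyclic AMP response element and an E-box, which overlap and begin at bases 13 and 17 of the transcribed side. In the *Hpgd* stretch a GC box begins 50 bases before the start and a TATA box at base 5 of the transcribed side. These positions are counted from the annotated start, and whether transcription begins there was not tested. Among 32851 promoter windows of the table, each with 250 bases before and 50 after a start, 7.15% hold the E-box, 7.51% the cyclic AMP element core, 13.6% the TATA box, 35.7% the GC box and 37.4% the CCAAT box. The *Ptgs2* window was the only member window with the E-box or the cyclic AMP element core, among the 9 members that have a window. The TCF and LEF letters, found in 3.73% of all windows, were in the window of 0 members. A match of letters describes the window and says nothing about binding.

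Values are given as scaled log2 signals, that is, the log2 of the background-subtracted signal minus the 75th percentile of the array, so that 0 stands for the 75th percentile. Agilent's flag for a signal well above background was set for 46.8% to 58.2% of the probes of an array, the lowest share being that of colon replicate 3. Over all probes, this array correlated with the small intestine arrays at r = 0.96 to 0.966 and with the other colon arrays at 0.937 and 0.939, whereas colon replicates 1 and 2 correlated at 0.979. The median of 8 markers of small intestinal enterocytes ranged from 0.056 to 5.98 over the colon arrays, the top value being that of replicate 3. Comparisons with colon are therefore given with and without it. In CT26, the range of the median over 8 epithelial markers was -6.79 to -6.33, and 2 to 3 of them were well above background on an array. Their summed linear signal, in multiples of the 75th percentile, was 30.4 to 54.8 in CT26 and 1370 to 2470 in colon. *Epcam*, *Cdh1*, *Krt19*, *Vil1* and *Cldn3* were well above background on 0 CT26 arrays.

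Adenomas and CT26 cells each differed from normal gut in the cyclooxygenase and the breakdown steps. Between adenomas and small intestine, *Ptgs2* and *Tbxas1* were called higher and *Hpgd* lower, among 9 members tested. A gene was called where limma gave a log2 difference of 1.2 or more, up or down, with p adjusted by Benjamini-Hochberg over all probes tested and not above 0.01. Among all genes tested in this comparison, 11.3% were called higher and 11.1% lower. Between CT26 and colon, *Ptgs1* and *Ptgs2* were called higher and *Hpgd*, *Ptger4* and *Ptgis* lower, among 7 members tested. *Ptgs2* passed the filter through CT26 alone, and *Hpgd* and *Ptger4* through colon alone, so that their passing is no support for a difference. *Ptgs1* and *Ptgis* were well above background on all arrays of both groups. Of all genes tested between CT26 and colon, 21% were called higher and 16.2% lower. Large parts of the array thus differed in both comparisons. The median of the genes tested was 0.32 higher in CT26 than in colon and 0.15 lower in adenomas than in small intestine.

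**Figure D1:**
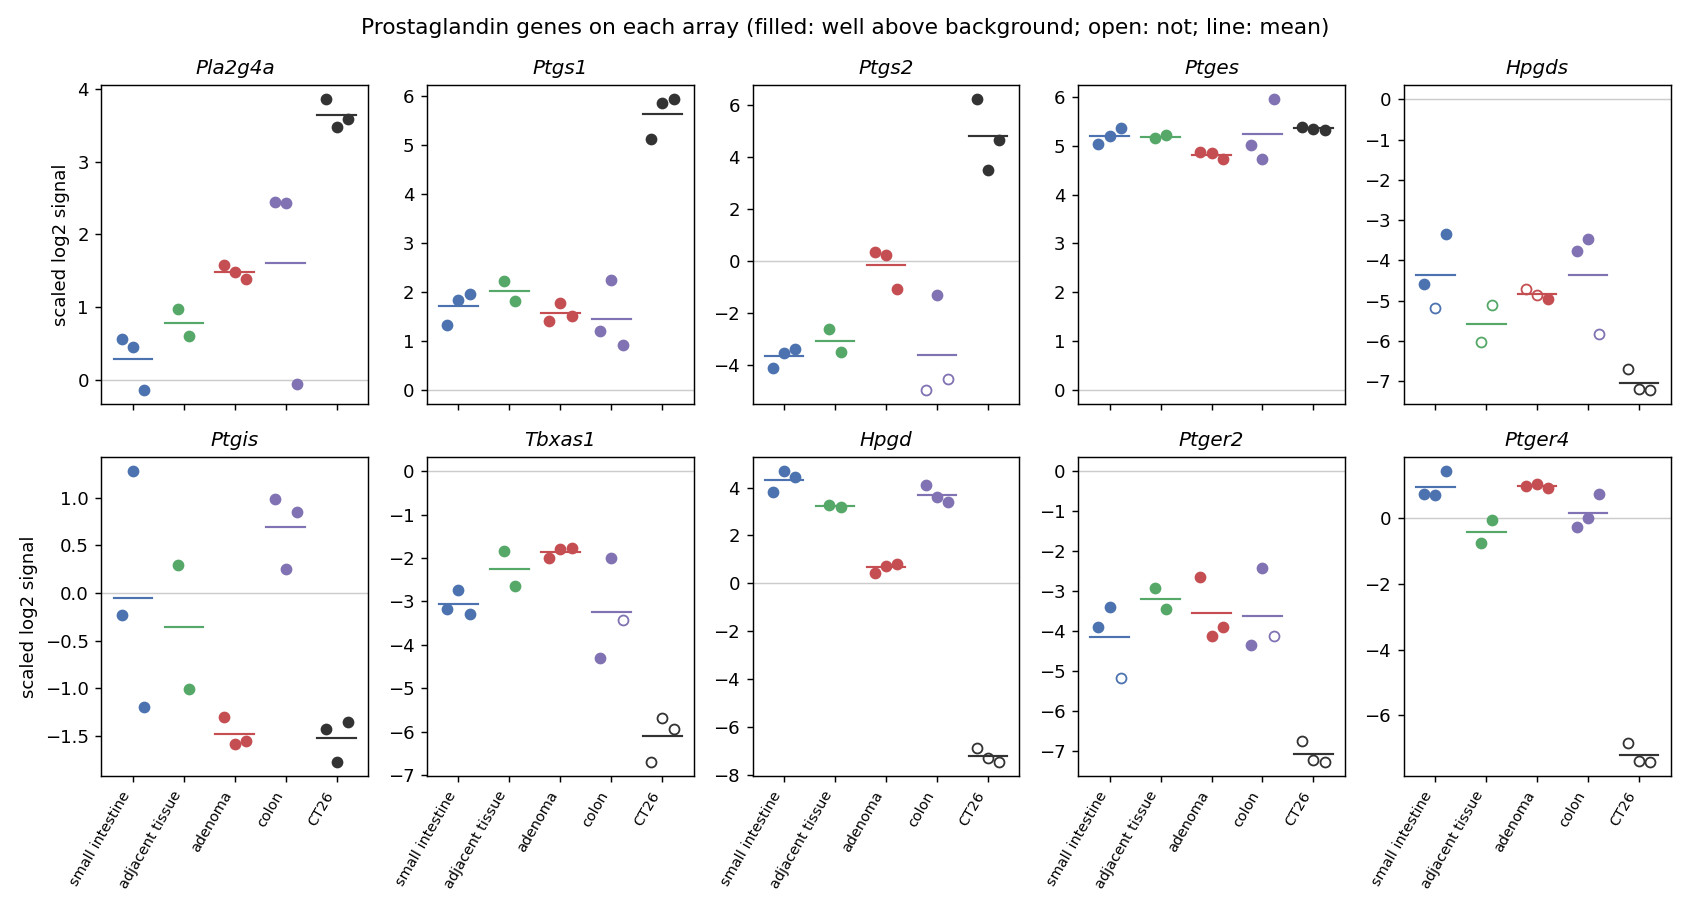
Scaled log2 signal (y axis, a separate range in each panel) of the 10 genes on each of the 14 arrays by group (x axis). Filled points are well above background, open points are not, and lines are group means. *Ptgs2* was highest and *Hpgd* lowest on the CT26 arrays, and the adenoma arrays lay between CT26 and small intestine for both.

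Liberation of arachidonic acid was represented by *Pla2g4a*, the cytosolic phospholipase. Its scaled log2 signal was 0.57, 0.45 and -0.14 on the small intestine arrays, 0.97 and 0.61 in adjacent tissue, and 1.58, 1.48 and 1.39 in adenomas. The adenoma arrays were all above the other small intestinal arrays, without overlap. The difference between adenomas and small intestine was 1.19 on the log2 scale (SE 0.22, limma adjusted p = 0.00458), a 2.28-fold higher signal that stayed just under the required size and was not called. On the colon arrays the values were 2.45, 2.43 and -0.06, the low value being that of replicate 3, and on the CT26 arrays 3.86, 3.47 and 3.58. CT26 exceeded colon by 2.03 (limma adjusted p = 0.034), which was not called, and by 1.198 (limma adjusted p = 0.00946) without colon replicate 3, again just short of the required size. Colon without replicate 3 was 2.15 above small intestine (limma adjusted p = 0.00578), a call that all 3 colon arrays did not give (1.31, limma adjusted p = 0.297).

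*Ptgs1*, the constitutive cyclooxygenase, had its high values in CT26 alone. The signal was 1.33, 1.84 and 1.97 in small intestine, 2.24 and 1.81 in adjacent tissue, 1.41, 1.77 and 1.51 in adenomas, 1.21, 2.25 and 0.91 in colon, and 5.14, 5.87 and 5.94 in CT26. Every CT26 array lay above every tissue array. CT26 was 18.3-fold higher than colon (log2 4.19, SE 0.43, limma adjusted p = 0.000175), and the log2 difference was 3.92 (limma adjusted p = 0.000259) without colon replicate 3. Within the slides the differences were 3.29 and 4.81, and with the slide as a block 4.05 (limma adjusted p = 0.00076). The difference between adenomas and small intestine was -0.15, with a 95% interval of -0.67 to 0.37 (limma adjusted p = 0.584).

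*Ptgs2*, the inducible cyclooxygenase, was read from a probe spotted 10 times on each array (chr1:151954744-151954803 in mm9). Its signal was -4.09, -3.51 and -3.39 in small intestine, -2.62 and -3.49 in adjacent tissue and 0.36, 0.23 and -1.07 in adenomas. All adenoma arrays exceeded all arrays of the normal and adjacent small intestine. Adenomas were 11.3-fold higher than small intestine (log2 3.50, SE 0.40, limma adjusted p = 0.00071), with differences of 3.39 and 3.74 within the slides and 3.50 with the slide as a block (limma adjusted p = 0.00218). The size depended on the processing, since the log2 difference was 2.41 (limma adjusted p = 0.00119) in the authors' normalized table and 2.31 (limma adjusted p = 0.000805) with normexp correction, which kept the call. Against adjacent tissue the adenomas were 7.42-fold higher (log2 2.89, SE 0.50), but the limma adjusted p of 0.0176 missed the threshold.

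In CT26 the *Ptgs2* signal was 6.22, 3.50 and 4.68, against -4.95, -1.30 and -4.53 in colon, where only replicate 2 was well above background. The probe passed the filter through CT26 alone. The groups did not overlap. CT26 was 336-fold higher (log2 8.39, SE 1.05, limma adjusted p = 0.000448), with a 95% interval of 5.95 to 10.8, and 2 of the 3 colon values behind this fold were not well above background. Without colon replicate 3 the log2 difference was 7.92 (limma adjusted p = 0.000997), and within the slides it was 6.75 and 8.24. With the slide as a block it was 7.49 (limma adjusted p = 0.000118). It was 6.73 in the authors' table and 6.75 with normexp, and with other arrays left out it ranged from 7.68 (without CT26 replicate 1) and 7.71 (without colon replicate 1) to 9.04 (without CT26 replicate 2) and 9.54 (without colon replicate 2), always called. Adenomas were 3.43 above colon on the log2 scale (limma adjusted p = 0.0792, and 0.0959 without colon replicate 3), which was not called. In order of its mean, *Ptgs2* stood at 4.80 in CT26, -0.16 in adenomas, -3.05 in adjacent tissue, -3.59 in colon and -3.66 in small intestine, and the last 3 were not separated beyond their spread.

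The terminal synthase of prostaglandin E, *Ptges*, gave different answers on its probes. The brighter one (chr2:30744995-30745054 in mm9) lay between 4.74 and 5.95 on all arrays, the top value being that of colon replicate 3. Its CT26 minus colon difference was 0.12 (95% interval -0.74 to 0.98, limma adjusted p = 0.804), and 0.48 (limma adjusted p = 0.174) without that array. The dimmer probe (chr2:30748214-30748273 in mm9) gave 2.32, 2.80 and 2.62 in CT26 against -4.04, -2.43 and -2.998 in colon. By this probe CT26 was 53.3-fold higher (log2 5.74, SE 0.44, limma adjusted p = 3.9e-05). In adenomas it read -1.80, -1.90 and -2.43 and in small intestine -3.26, -3.20 and -2.95, so that the groups did not overlap, and the difference of 1.09 (limma adjusted p = 0.00599) was just under the required size. The brighter probe differed by -0.38 in the same comparison, also without overlap (limma adjusted p = 0.0816). Which probe follows the *Ptges* transcript was not tested, and the gene counts as not called here.

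**Figure D2:**
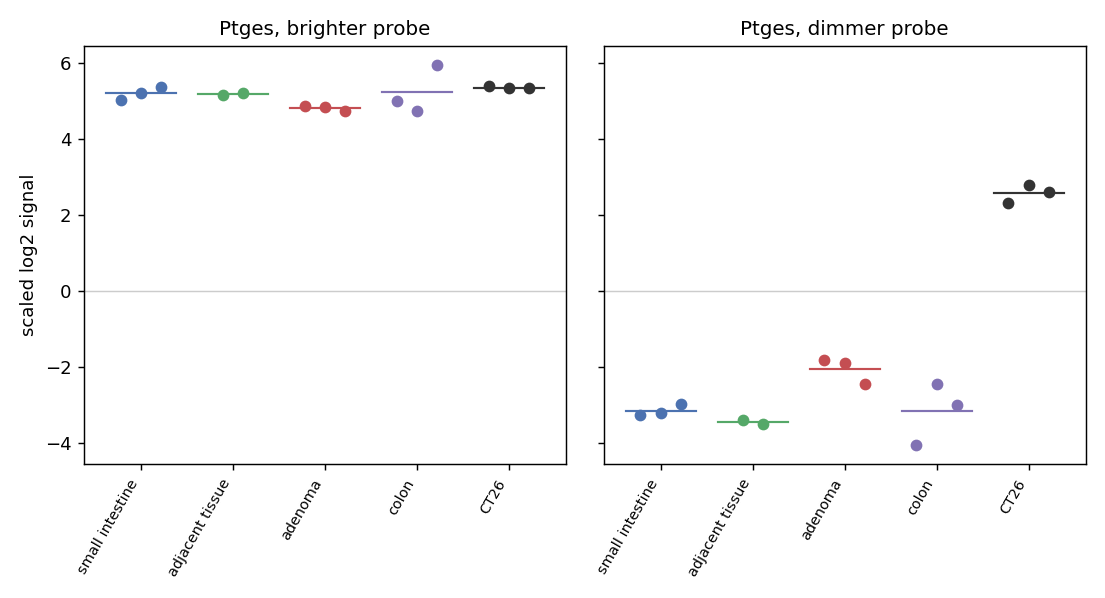
Scaled log2 signal (y axis) of the brighter and the dimmer *Ptges* probe on each array by group (x axis), with lines at the group means. The brighter probe stayed between 4.74 and 5.95 on all arrays, and on the dimmer probe the CT26 arrays lay above all tissue arrays.

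*Tbxas1*, thromboxane synthase, was -3.16, -2.74 and -3.29 in small intestine, -1.84 and -2.65 in adjacent tissue and -2.01, -1.78 and -1.76 in adenomas. The adenoma arrays were all above the small intestine arrays and not all above the adjacent ones. Adenomas were 2.32-fold higher than small intestine (log2 1.22, SE 0.20, limma adjusted p = 0.00274), and the differences were 1.34 and 0.96 within the slides and 1.22 with the slide as a block (limma adjusted p = 0.00448). The call stood at the edge of the required size. It was kept under 8 of 16 alternatives, among which the log2 difference ranged from 0.62 to 1.38 and the limma adjusted p from 0.00205 to 0.0652. It was lost without small intestine replicate 1 (1.17), small intestine replicate 3 (1.10), adenoma replicate 2 (1.18) or adenoma replicate 3 (1.17). In colon, *Tbxas1* was -4.30, -1.99 and -3.42, with 2 of 3 arrays well above background, and no CT26 array was well above it (-6.69, -5.69 and -5.92). The colon mean was 3.99-fold above the lowest signals that counted as well above background in CT26, on the scale used here alone. As that mean includes a colon array not well above background, the fold is no strict minimum. CT26 against colon was not tested for this gene with all colon arrays. It passed the filter once colon replicate 3, the colon array not well above background, was left out (measured difference -2.96, limma adjusted p = 0.00803), and a probe that passes through its high group alone is no support for a difference.

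Markers of cells that are known to make these lipids differed between adenomas and small intestine as well, in a comparison where 11.3% of all genes were called higher and 11.1% lower. Of the mast cell markers 4 of 6 tested were called higher in adenomas, and their summed linear signal, in multiples of the 75th percentile, was 1.47 to 11.8 in small intestine and 35.9 to 90.4 in adenomas. Of the platelet markers 3 of 6 were called higher, with sums of 0.857 to 2.29 and 5.13 to 5.42. Of the neutrophil markers 3 of 5 tested were called higher (*S100a8*, *S100a9* and *Mmp9*), with overlapping sums of 30 to 52.8 and 46.6 to 54.2, and *Cxcr2* was not well above background on any array of either group. Of 7 macrophage markers only *Cd68* was called, in the higher direction. Of 7 endothelial markers 5, and of 7 fibroblast markers 3, were called higher. Of 5 tuft cell markers tested, *Avil* was called higher and *Trpm5* lower. Of 8 enterocyte markers 4 were called lower, with sums of 2760 to 3710 in small intestine and 323 to 525 in adenomas. The part of these cells in the values of *Ptgs2*, *Tbxas1* and *Hpgd* was not tested.

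*Ptgis*, prostacyclin synthase, varied most between small intestine arrays, at -0.23, 1.28 and -1.20, and was 0.30 and -1.01 in adjacent tissue. In adenomas it was -1.31, -1.58 and -1.55, below every small intestine array, and the difference of -1.43 (95% interval -2.77 to -0.10, limma adjusted p = 0.069) was not called. Colon arrays gave 0.98, 0.25 and 0.84 and CT26 arrays -1.43, -1.77 and -1.35, without overlap. *Ptgis* fell by 2.21 on the log2 scale in CT26 against colon (4.62-fold, SE 0.32, limma adjusted p = 0.000872), and by 2.13 (limma adjusted p = 0.00155) without colon replicate 3. It was also 4.52-fold lower in adenomas than in colon (log2 -2.18, SE 0.25, limma adjusted p = 0.00589), and -2.10 (limma adjusted p = 0.00356) without colon replicate 3. The latter call was lost with the slide as a block (-2.09, limma adjusted p = 0.0222), though the differences within the slides were -1.68 and -2.50. It was also lost without colon replicate 1 (limma adjusted p = 0.0214) or without adenoma replicate 1 (0.0359), 2 (0.0478) or 3 (0.0387).

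Smooth muscle markers were lower, as *Ptgis* was, in adenomas and in CT26 than in colon. Their summed linear signal was 510 to 695 in colon, 90.3 to 111 in adenomas and 0.6 to 1.28 in CT26. The mean of *Ptgis* was -1.48 in adenomas and -1.51 in CT26, well above background on all arrays of both. Of 7 such markers, 6 were called lower in adenomas than in colon and all 7 lower in CT26 than in colon, beside 1.63% and 16.2% of all genes. The small intestine arrays had sums of 226, 501 and 133, beside *Ptgis* at -0.23, 1.28 and -1.20. In adjacent tissue the sums were 572 and 139, beside 0.30 and -1.01. In colon they were 695, 678 and 510, beside 0.98, 0.25 and 0.84. On each CT26 array 3 of the 7 were well above background, and *Myh11*, *Des*, *Cnn1* and *Lmod1* were so on 0 CT26 arrays. The part of smooth muscle in the *Ptgis* values was not tested.

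*Hpgds*, the hematopoietic prostaglandin D synthase, was near background everywhere and was not tested in any of the 6 comparisons. Its signal was -4.60, -5.19 and -3.34 in small intestine, -6.03 and -5.12 in adjacent tissue, -4.71, -4.87 and -4.97 in adenomas, -3.77, -3.46 and -5.83 in colon and -6.71, -7.20 and -7.22 in CT26. Signals well above background came from 2 of 3 small intestine, 2 of 3 colon and 1 of 3 adenoma arrays, and from 0 of the others. The colon mean was 1.90-fold above the lowest signals that counted as well above background in CT26. It includes a colon array not well above background, so this is no strict minimum. Without colon replicate 3, the colon array not well above background, the gene passed the filter through colon alone, with measured differences of -3.43 (limma adjusted p = 0.000104) for CT26 and -1.23 (limma adjusted p = 0.0062) for adenomas that are not taken as support.

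*Hpgd*, whose product inactivates prostaglandin E, was the only member called in all 4 comparisons of adenomas or CT26 with other tissue. Its signal (chr8:58799399-58799458 in mm9) was 3.83, 4.69 and 4.43 in small intestine, 3.26 and 3.20 in adjacent tissue and 0.45, 0.74 and 0.80 in adenomas. The groups followed each other without overlap. Adenomas were 12.5-fold lower than small intestine (log2 -3.65, SE 0.25, limma adjusted p = 0.000126), with -3.50 and -3.95 within the slides and -3.65 with the slide as a block (limma adjusted p = 0.000599). Adenomas were 5.91-fold lower than adjacent tissue (log2 -2.56, SE 0.17, limma adjusted p = 0.00249). This was the only call among the 9 members tested there, in a comparison in which 1.78% of all genes were called lower. The difference was -2.63 and -2.46 within the slides and -2.56 with the slide as a block (limma adjusted p = 0.00928). The call was lost without adenoma replicate 1 (limma adjusted p = 0.0131), 2 (0.033) or 3 (0.0136), while the log2 difference stayed between -2.63 and -2.46.

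On the colon arrays *Hpgd* was 4.11, 3.59 and 3.38, and on the CT26 arrays it was not well above background (-6.90, -7.30 and -7.46). Here it passed the filter through colon alone. CT26 was at least 502-fold lower than colon (measured log2 difference -10.91, limma adjusted p = 6.15e-07), and the difference was -11.07 (limma adjusted p = 1e-06) without colon replicate 3 and -10.77 and -11.05 within the slides. With the slide as a block it was -10.91 (limma adjusted p = 9.44e-06). The bound sets the mean of colon against the lowest signal that counted as well above background on each CT26 array. Like the other bounds given here, it holds for this scale alone. The measured difference of *Hpgd* was -7.02 in the authors' table and -7.18 with normexp, both called and both smaller than the bound. Adenomas were 8.17-fold lower than colon (log2 -3.03, SE 0.25, limma adjusted p = 0.00253), and -3.18 (limma adjusted p = 0.000744) without colon replicate 3. Together with *Ptgis* this made 2 members called lower of 9 tested, where 1.63% of all genes were called lower. With the slide as a block the limma adjusted p was 0.0139 and the call was lost (-2.99), with -2.97 and -3.01 within the slides. It was also lost without adenoma replicate 1 (limma adjusted p = 0.0213), 2 (0.0268) or 3 (0.0182). The other *Hpgd* probe (chr8:58798941-58799000 in mm9) gave the same call in each of these comparisons, with log2 differences of -3.82 and -2.67 for adenomas against small intestine and adjacent tissue, and a signal at least 212-fold lower in CT26 than in colon.

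**Figure D3:**
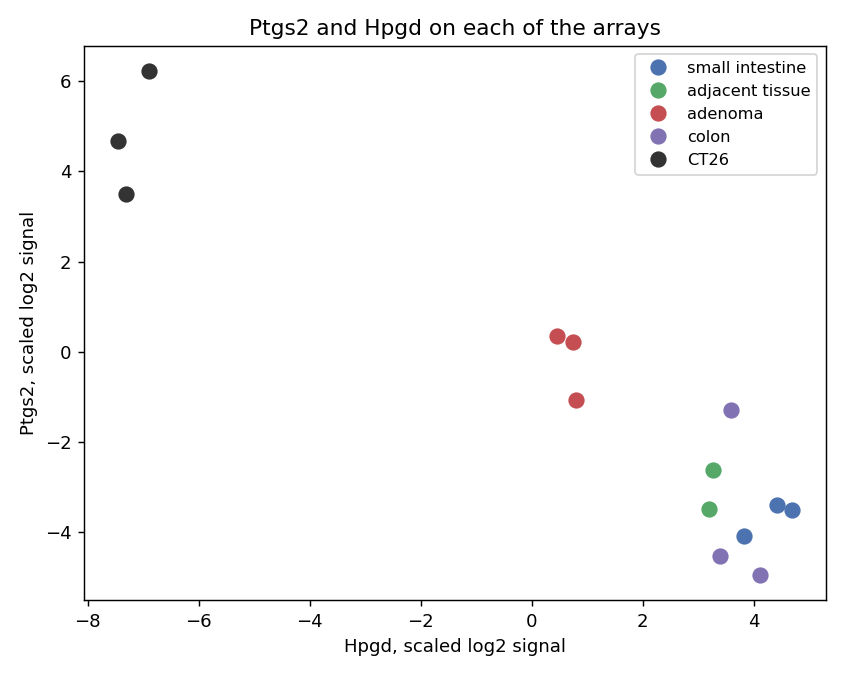
Scaled log2 signal of *Ptgs2* (y axis) against that of *Hpgd* (x axis), 1 point per array, colored by group. CT26 arrays lay at the upper left, adenoma arrays (*Hpgd* 0.45 to 0.80) in the middle and all arrays of normal and adjacent tissue at the lower right, and *Hpgd* was not well above background in CT26.

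Of the receptors for prostaglandin E, *Ptger4* was measured on every tissue array. Its signal was 0.74, 0.71 and 1.44 in small intestine, -0.75 and -0.06 in adjacent tissue, 0.99, 1.04 and 0.92 in adenomas, and -0.26, 0.00 and 0.73 in colon. Adenomas and small intestine overlapped, with a difference of 0.02 (95% interval -0.52 to 0.57, limma adjusted p = 0.935). The adjacent arrays were below both, and adenomas exceeded them by 1.39 (SE 0.23, limma adjusted p = 0.0163), which was not called. On the CT26 arrays the signal was -6.86, -7.39 and -7.41, not well above background, and the probe passed the filter through colon alone. *Ptger4* was at least 43.3-fold lower in CT26 than in colon (measured log2 difference -7.38, limma adjusted p = 4.12e-06), with -7.09 (limma adjusted p = 3.4e-06) without colon replicate 3, -7.14 and -7.63 within the slides and -7.38 with the slide as a block (limma adjusted p = 3.79e-05). As for *Hpgd*, the measured difference was smaller than the bound in the authors' table (-3.69) and with normexp (-4.01), and was called in both.

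*Ptger2*, the other such receptor, was dim. It was -3.90, -3.39 and -5.17 in small intestine, -2.92 and -3.45 in adjacent tissue, -2.65, -4.12 and -3.90 in adenomas, and -4.34, -2.42 and -4.13 in colon. These groups overlapped. Adenomas differed from small intestine by 0.59 (95% interval -0.70 to 1.89, limma adjusted p = 0.386). CT26 arrays (-6.75, -7.22 and -7.26) were not well above background. The colon mean was 3.14-fold above the lowest signals that counted as such in CT26. This is no strict minimum, as the mean includes a colon array not well above background. Without colon replicate 3, again the colon array not well above background, *Ptger2* passed the filter through colon alone (measured difference -3.70, limma adjusted p = 0.00121). Leaving out that array gave 8 members past the thresholds between CT26 and colon, where 39.5% of all genes were, but 3 of the 8 (*Hpgds*, *Ptger2* and *Tbxas1*) entered only in this way and the other 5 were those called with all arrays.

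**Figure D4:**
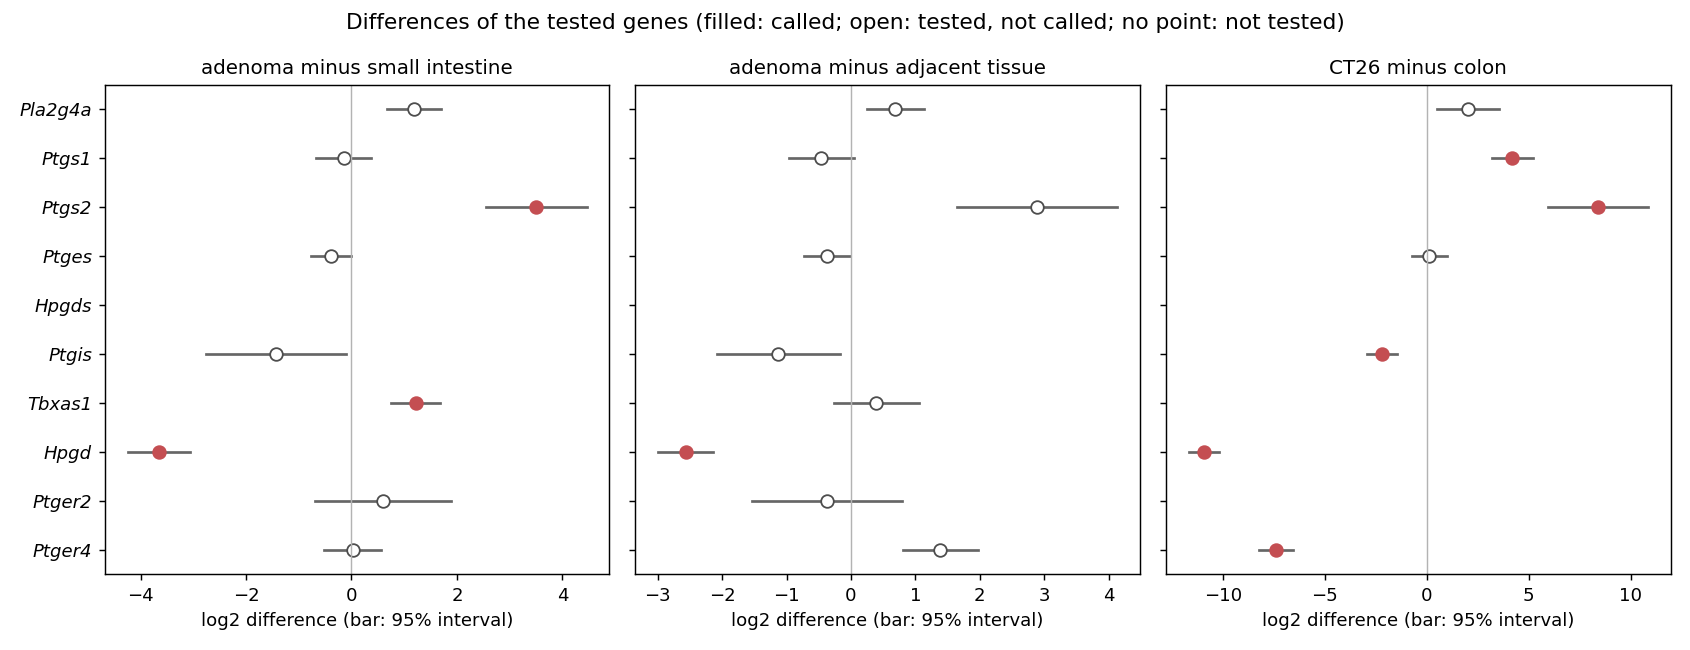
Log2 differences (x axis, a separate range in each panel) of the members (y axis) in 3 comparisons, with 95% intervals from limma. Filled points were called, open points were tested and not called, and members without a point were not tested. *Hpgd* was called lower in each, and in CT26 minus colon its point and that of *Ptger4* are measured differences from a group not well above background.

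The comparisons between normal or adjacent tissues gave 0 calls of members with all arrays. Between adjacent tissue and small intestine 0 of 9 members were called, as were 0.00924% of all genes, although 8748 probes had an unadjusted limma p under 0.05. *Hpgd* differed by -1.09 (95% interval -1.83 to -0.35, limma adjusted p = 0.088) and *Ptger4* by -1.37 (-2.21 to -0.52, limma adjusted p = 0.0772), both without overlap between the groups. Between colon and small intestine 0 of 8 members and 0.00969% of all genes were called, with 6413 probes at an unadjusted limma p under 0.05. *Hpgd* differed there by -0.62 (95% interval -1.40 to 0.16, limma adjusted p = 0.295) and *Ptger4* by -0.80 (-1.66 to 0.05, limma adjusted p = 0.233). Without colon replicate 3, 7.23% of all genes were called and *Pla2g4a* was the 1 member among them.

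The difference between CT26 and colon was then set against that between adenomas and small intestine, which share no array, in a single limma fit of these 4 groups. The contrast differed for 6 members: *Ptgs1* and *Ptgs2* in the higher direction (15.5% of all genes) and *Hpgd*, *Ptger2*, *Ptger4* and *Tbxas1* in the lower direction (15.3%). For *Ptgs1* the difference between the contrasts was 4.34 (SE 0.51, limma adjusted p = 4.94e-05), and for *Ptgs2*, called higher in both adenomas and CT26, it was 4.89 (SE 1.28, limma adjusted p = 0.00927). *Ptgs2* kept this call under 7 of 21 alternatives. It was lost without colon replicate 3 (4.42, limma adjusted p = 0.0176), and also without any 1 small intestine or adenoma array, colon replicate 1, or CT26 replicate 1 or 3, with values between 4.18 and 5.15 over these arrays, while without colon replicate 2 it was 6.04 and without CT26 replicate 2 it was 5.54, both called. Blocking ended it as well, with 4.51 (limma adjusted p = 0.0113) for the slide and 4.89 (limma adjusted p = 0.0163) for the replicate number. For *Hpgd*, called lower in both, the difference was -7.26 (SE 0.41, limma adjusted p = 1.41e-07), and for *Ptger4* it was -7.41 (SE 0.43, limma adjusted p = 1.92e-07). The values of *Ptger2* (-4.05, limma adjusted p = 0.00238) and *Tbxas1* (-4.08, limma adjusted p = 0.000643) rest, as do those of *Hpgd* and *Ptger4*, on CT26 signals that were not well above background, so their size is not settled. These genes passed the filter through tissue arrays alone, *Ptger2* through adenomas alone, so that their passing is no support for a difference. *Ptger2* and *Tbxas1* were not tested between CT26 and colon with all arrays. In the authors' table the differences of *Hpgd*, *Ptger4*, *Ptger2* and *Tbxas1* shrank to -3.69, -3.82, -1.04 and -1.49, and with normexp to -3.68, -4.09, -1.40 and -1.95, and *Ptger2* lost its call in both (limma adjusted p = 0.0445 and 0.0118). Without colon replicate 2, *Ptger2* was at -3.44 and *Tbxas1* at -3.46, both called.

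Other genes of prostanoid metabolism were taken from lists. In adenomas against small intestine, transport and breakdown genes moved in both directions, with 1 of 4 higher and 2 lower, beside 11.3% and 11.1% of all genes. *Slco2a1*, which takes prostaglandins up into cells, was 4-fold lower (1.71 against 3.71, limma adjusted p = 0.000156). *Abcc4*, which exports them, was 14-fold higher (1.97 against -1.84, limma adjusted p = 0.000126). *Ptgr2*, a reductase of the products of *Hpgd*, was 2.63-fold lower (limma adjusted p = 0.000936). Of the further phospholipases A2, 3 of 7 were called higher and 0 lower, beside the same shares of all genes, with a list median of 0.55 against -0.15 over all genes. These were the secreted enzymes *Pla2g2a* (16.5-fold, limma adjusted p = 0.000226), which is known to be disrupted in the C57BL/6 strain and to modify polyp number, *Pla2g5* (7.19-fold) and *Pla2g12a* (11-fold, limma adjusted p = 5.32e-05). In adjacent tissue the means were 1.22 for *Abcc4*, 2.94 for *Pla2g5*, 2.03 for *Pla2g12a* and 3.05 for *Pla2g2a*, all above their small intestine means. Adenomas differed from adjacent tissue by 0.75 in *Abcc4* (limma adjusted p = 0.262), -1.14 in *Pla2g5* (0.253), 1.36 in *Pla2g12a* (0.0699), 2.35 in *Pla2g2a* (0.0163), -1.23 in *Slco2a1* (0.0109) and -0.46 in *Ptgr2* (0.0954), without a call. Of the 7 phospholipases 1 was called there, *Pla2g10*, which was 3.26-fold higher in adenomas (limma adjusted p = 0.00966), beside 4.18% of all genes in either direction. Against small intestine it was not called (log2 0.55, limma adjusted p = 0.125).

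Neither the further synthases (0 of 5 tested) nor the further receptors (0 of 4) held a limma call in that comparison, although 5 and 2 of them had an unadjusted limma p under 0.05. Of the leukotriene and lipoxygenase branch, *Alox12* (at least 10.9-fold, limma adjusted p = 0.000131) and *Alox15* (at least 1.48-fold, limma adjusted p = 0.00475) were called higher, and *Lta4h* (2.38-fold) and *Ltc4s* (2.95-fold), which make leukotrienes, lower, among 8 genes, beside 11.3% and 11.1% of all genes. Both lipoxygenases were not well above background on any small intestine array and passed the filter through adenomas alone, and the bound of *Alox15* is under the size that a call requires.

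In CT26 against colon, *Slco2a1* was 133-fold lower (limma adjusted p = 2.44e-05) and *Abcc4* 13.7-fold higher (limma adjusted p = 0.00159), the same directions as in adenomas. *Ptgr1*, a further reductase of prostaglandins, was 9.02-fold lower (limma adjusted p = 0.0089), a call lost without colon replicate 3 (log2 -2.46, limma adjusted p = 0.0116). Of 6 further synthases 3 were called higher and 1 lower, beside 21% and 16.2% of all genes, with a median of 1.58 against 0.32 over all genes, and these counts were the same without colon replicate 3. They were *Ptges3* (3.25-fold), a cytosolic prostaglandin E synthase and cochaperone, *Ptgds* (14.4-fold), the lipocalin-type prostaglandin D synthase, *Akr1b3* (3.2-fold), an aldose reductase, and on the lower side *Cbr1* (48.3-fold, limma adjusted p = 1.04e-05), a carbonyl reductase.

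Among the further receptors, the prostacyclin receptor *Ptgir* was at least 5.33-fold lower in CT26 than in colon (limma adjusted p = 2.31e-05) and the thromboxane receptor *Tbxa2r* 5.06-fold lower (limma adjusted p = 0.000768), of 3 tested. Of all genes 21% were called higher there and 16.2% lower. *Ptger3*, a further receptor for prostaglandin E, was not tested, with 0 of 3 CT26 and 2 of 3 colon arrays well above background. Its colon mean was 9.34-fold above the lowest signals that counted as well above background in CT26. This is no strict minimum, as the mean includes the dim colon array. Of 7 phospholipases 1 was called higher and 2 lower, beside the same shares of all genes: *Pla2g12a* was 6.7-fold higher, *Pla2g5* was 25-fold lower and *Pla2g10*, a secreted enzyme, was at least 758-fold lower (limma adjusted p = 1.39e-05). *Pla2g2a*, not well above background in CT26, was not called (measured difference -8.60, limma adjusted p = 0.0106), and its colon values had an SD of 4.96. Without colon replicate 3 it was past the thresholds, through colon alone, with a smaller measured difference of -5.77. As the size rests on that array, no minimum fold is given. *Pla2g6* was also called without it, in the higher direction (log2 1.79). Of 6 tested leukotriene genes 3 were called lower and 0 higher, beside 16.2% and 21% of all genes: *Alox5*, at least 14-fold, *Ltc4s*, 3.14-fold, and the leukotriene B receptor *Ltb4r1*, 13.1-fold. Leaving out colon replicate 3 gave 3 lower as well. *Ptgir*, *Pla2g10* and *Alox5* were not well above background on any CT26 array and passed the filter through colon alone.

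The genes whose pattern over the 14 arrays was most like that of *Ptgs2*, by Pearson's r among 14323 genes, were *Alg3* (0.98), *Trip6* (0.97), *Nrg1* (0.97), *Rnd1* (0.969) and *Tnfrsf12a* (0.968). Those most like *Hpgd* were *Gucy2c* (0.998), *Vdr* (0.996), *Gm5485* (0.995), *Fam183b* (0.995) and *Sult1d1* (0.994). The arrays fall into separate groups with CT26 at one end, so these coefficients describe the order of the groups, and the points of a group share tissue or cell line.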

How the data were processed

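Scanner output of 14 one-color Agilent SurePrint G3 Mouse arrays was used. Per the file headers, the authors scanned with Feature Extraction 10.7.3.1, and the deposited processed signal is an intensity after background subtraction, with no normalization between arrays. Probe positions are on mm9. The authors also deposited a table of normalized log2 values, by a method not given in the sources used here (array medians 6.79 to 6.83). It served as an alternative, its 28 further columns of per-sample values were not used, and its columns of fold changes and p-values were not read.

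From the intensity, control spots and outlier spots (103 to 206 an array, of 62976) were left out, values were put on the log2 scale, shifted by the array's own 75th percentile and averaged over the spots of a probe. Grouping followed the labels. All 6 pairs of groups were fitted, each on its own arrays with limma 3.58.1 in R 4.3.3 keeping probes that every array of 1 or both groups measured well above background, with Benjamini-Hochberg adjustment, and the script was tested on simulated data. Thresholds (log2 1.2, adjusted p 0.01) are those of the study's methods. Genes named are all members, listed pathway genes past both thresholds in adenomas against small intestine or CT26 against colon, and the 5 genes most correlated with *Ptgs2* and with *Hpgd*. Members and lists were chosen with earlier results of these data known. *Ly6g* of the neutrophil list was not found on the array. The study's methods name 4 APCmin/+ mice over all assays, its sample list places the adenoma and adjacent arrays under 1 of them, and whether the CT26 arrays come from separate cultures is not given in the sources used here. P-values therefore measure the spread between these samples, which may be technical, and the small number of arrays limits the precision.

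The alternatives were the authors' table, normexp (offset 50), quantile scaling, no filter or a stricter one for dim probes, 1 fit for all groups, slide or replicate number as a block, any probe of a gene, an adjusted p of 0.05 without a minimum fold, and each array left out in turn.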

Additional observations from a re-analysis of the deposited data

Results flagged for a closer look

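For 6 genes the difference between CT26 and colon was not the same as that between adenomas and small intestine, by limma's test of the difference itself. *Ptgs1* (4.34) and *Ptgs2* (4.89) were shifted upward in CT26, in log2 units, with all 3 CT26 arrays above all colon arrays. *Ptgs1* kept this call under 22 of 22 alternatives but *Ptgs2* under 7 of 21, and the slide or the replicate number as a block ended the call of *Ptgs2*. *Hpgd* (-7.26), *Ptger2* (-4.05), *Ptger4* (-7.41) and *Tbxas1* (-4.08) were shifted downward, with all 3 CT26 arrays below all colon arrays and not well above background, so their size is not settled: the smallest values under an alternative were -3.68, -1.04, -3.82 and -1.49. The limma adjusted p-values were 4.94e-05, 0.00927, 1.41e-07, 0.00238, 1.92e-07 and 0.000643 in that order. The genes shifted downward passed the filter through tissue arrays alone, which is no support for a difference.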

How the results depend on the processing

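Over 299 values of called members under an alternative, 299 kept the direction and 257 also the call, although sizes shrank for members near background in the authors' table and with normexp. The members called between adenomas and small intestine were 3, and 2 to 4 under every alternative. They were not always the same members: without small intestine replicate 1 the count was 3, although *Tbxas1* lost its call. Between adenomas and adjacent tissue the main count of 1 became 2 with normexp, 0 without a filter on dim probes and 4 at an adjusted p of 0.05, and 0 to 3 with an array left out (0 without any 1 adenoma replicate, 3 without adjacent tissue replicate 2). Between colon and small intestine it was 0, and 0 to 1 with an array left out (1 without colon replicate 3). Between CT26 and colon it was 5, but 2 among probes well above background in both groups, which removes *Hpgd*, *Ptger4* and *Ptgs2* by construction, and 5 to 8 with an array left out (8 without colon replicate 3, of which 3 passed the filter through colon alone). Between adenomas and colon it was 2, but 1 without a filter, 1 in a fit of all groups, 0 with the slide as a block and 0 to 3 with an array left out (0 without any 1 adenoma replicate, 1 without colon replicate 1, 3 without colon replicate 3). The contrasts differed for 6 members, and for 1 among probes well above background in all 4 groups. Adding the replicate number as a block left 0 members between adenomas and adjacent tissue and 0 between adenomas and colon, and other counts within 1.5 times. Arrays with the same number deviated together with correlations of -0.223 to 0.302 and the numbers are not taken as pairs. For adjacent tissue the sample titles carry other numbers than the replicate labels used here. Pairs by title were not examined, so neither the block nor these correlations can tell whether adenoma and adjacent pieces were paired. The share of all genes called moved by over 1.5 times too: without a filter it was 10.8% for adenomas against small intestine (22.4% as reported), 0.149% against adjacent tissue (4.18%), 0.68% against colon (3.7%), 18.7% for CT26 against colon (37.2%) and 16.5% for the difference (30.8%). With the slide as a block it was 0.73% for adenomas against adjacent tissue and 0.384% against colon, and over arrays left out it ranged from 0 to 5.69% and from 0.018% to 11.7% for these pairs. In the fit of all groups it was 0.88% and 6.99% for them, 0.629% for adjacent tissue against small intestine (0.00924%) and 3.85% for colon against small intestine (0.00969%). Over the probes tested, the median difference of adenomas minus small intestine was -0.151 at the 75th percentile, -0.0461 after quantile normalization and -0.04 in the authors' table, and called members kept their direction under each. For *Ptger2*, *Hpgds* and *Tbxas1*, signal near background limits what can be told in CT26.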
